A study of Homo sapiens with 12 samples.

Results

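Plasminogen activators and pericellular serine proteases are a set of 10 genes in this data set, chosen by symbol out of 56269 genes in the count table: PLAU, PLAUR, PLAT, PRSS23, SERPINE2, SERPINB2, FURIN, HTRA1, ST14 and PCSK7. The libraries came from HEYA8, an established ovarian cancer cell line, infected with pHIV-dTomato lentivirus and sorted on dTomato, with 1 stable line for each construct as far as the methods say. There were 4 groups of 3 libraries: control vector, ∆GAG-BG (betaglycan with both chain-bearing serines mutated), S534A (CS-BG) and S545A (HS-BG). All were sampled at steady state in regular growth medium, RPMI-1640 with 10% FBS. No group was given a betaglycan construct with both serines intact. Betaglycan, encoded by TGFBR3, is a co-receptor for TGF-β whose core protein can carry chondroitin sulfate and heparan sulfate chains. The study asked how each chain bears on the shedding of its extracellular part. The names CS-BG and HS-BG are the paper's, and its enzyme digestion found both kinds of chain on S534A.

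Urokinase (PLAU) and tissue plasminogen activator (PLAT) are secreted serine proteases that cut plasminogen into plasmin, a broad protease of fibrin and extracellular matrix. Urokinase does so at the cell surface when bound to its receptor, uPAR (PLAUR), and serpins such as PAI-2 (SERPINB2) and protease nexin-1 (SERPINE2) inactivate it. Matriptase (ST14) is a membrane-anchored serine protease of epithelial cells, HTRA1 and PRSS23 are secreted serine proteases, and FURIN and PCSK7 are proprotein convertases, which cut precursors of growth factors, receptors and proteases. In ovarian and other carcinomas the urokinase system is best known for its part in invasion.

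Values below are given as CPM, the count of a gene relative to library size, scaled between libraries by the trimmed mean of M-values (TMM), or, where different genes are compared, as TPM, which also divides by exon length. Total counts were 16410001 to 29504297 per library (median 24166676.5). A gene listed at 0 could at that depth still amount to 3 counts, or 0.102 to 0.183 CPM, by counting error only. The third S545A library has a title reading S545S and a genotype label reading S545A, and was used as S545A. PAX8 (193 to 295 CPM) and the keratins KRT7, KRT8 and KRT18 were expressed in all 12 libraries, while the keratin KRT19 had only 3 to 17 counts. VIM was at 2343 to 3132 CPM. Of 8 markers chosen here for the high-grade serous type, 4 passed the filter: PAX8, WT1 (3.42 to 8.38 CPM), MSLN (174 to 528 counts) and EPCAM (11 to 43 counts). ESR1 had 2 to 12 counts and FOLR1 0 to 1, while CDH1 and MUC16 had 0 counts throughout. Of the markers of other cells, PTPRC (leukocytes) reached at most 2 counts, ALB (liver) at most 6, and PECAM1 (endothelium) 4 to 17. TGFBR3 was at 476, 413 and 457 CPM in the S534A libraries and 574, 522 and 520.4 CPM in the S545A libraries. It was at 259.6, 20.3 and 21.4 CPM in the libraries labelled ∆GAG-BG, and at 15.9, 259 and 259 CPM in those labelled control vector. In libraries 2 and 3 of these groups TGFBR3 therefore went against the labels, and every direction drawn from them rests on the labels as given. S534A library 2 stood apart from the others: it held the highest value of 26.1% and the lowest value of 25.4% of the 16069 genes tested. HSPA5, a chaperone of the endoplasmic reticulum, was at 287 CPM there and at 11864 CPM in the first library labelled ∆GAG-BG, against 1228 to 3906 CPM in the other 10 libraries. Estimates without S534A library 2 are given for some members below. The part of these differences in the results was not otherwise tested. In bulk RNA, fewer cells expressing a gene and less RNA per cell cannot be told apart.

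The activators, receptor and secreted proteases differed widely in level. PLAU led with a mean of 921 ± 144 TPM (SD, n = 12 libraries), above 99.2% of the genes that passed the filter on low counts. It was followed by PLAUR at 120.1 ± 29.9 TPM and PRSS23 at 108 ± 19.9 TPM, whose ranges over libraries overlapped (96.4 to 209.6 and 87.1 to 167 TPM). FURIN stood at 55.1 ± 3.39 TPM, below both. SERPINE2 (14.0 ± 7.33 TPM), PLAT (8.88 ± 1.43 TPM), PCSK7 (5.67 ± 0.516 TPM) and HTRA1 (4.77 ± 1.36 TPM) came next. Over the libraries the ranges of SERPINE2 and PLAT overlapped, as did those of PCSK7 and HTRA1 and those of PLAT and HTRA1. PLAU did not overlap with PLAUR, PLAT did not with PCSK7, and FURIN overlapped with neither PRSS23 nor SERPINE2. SERPINB2 (0.307 ± 0.197 TPM) and ST14 (0.1115 ± 0.0622 TPM) were close to the limit of detection and overlapped with each other only. PLAU made up 64.0% to 78.6% of the summed TPM of the 10 genes in each library, and PLAU, PRSS23 and PLAUR together 91.0% to 94.0%.

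**Figure D1:**
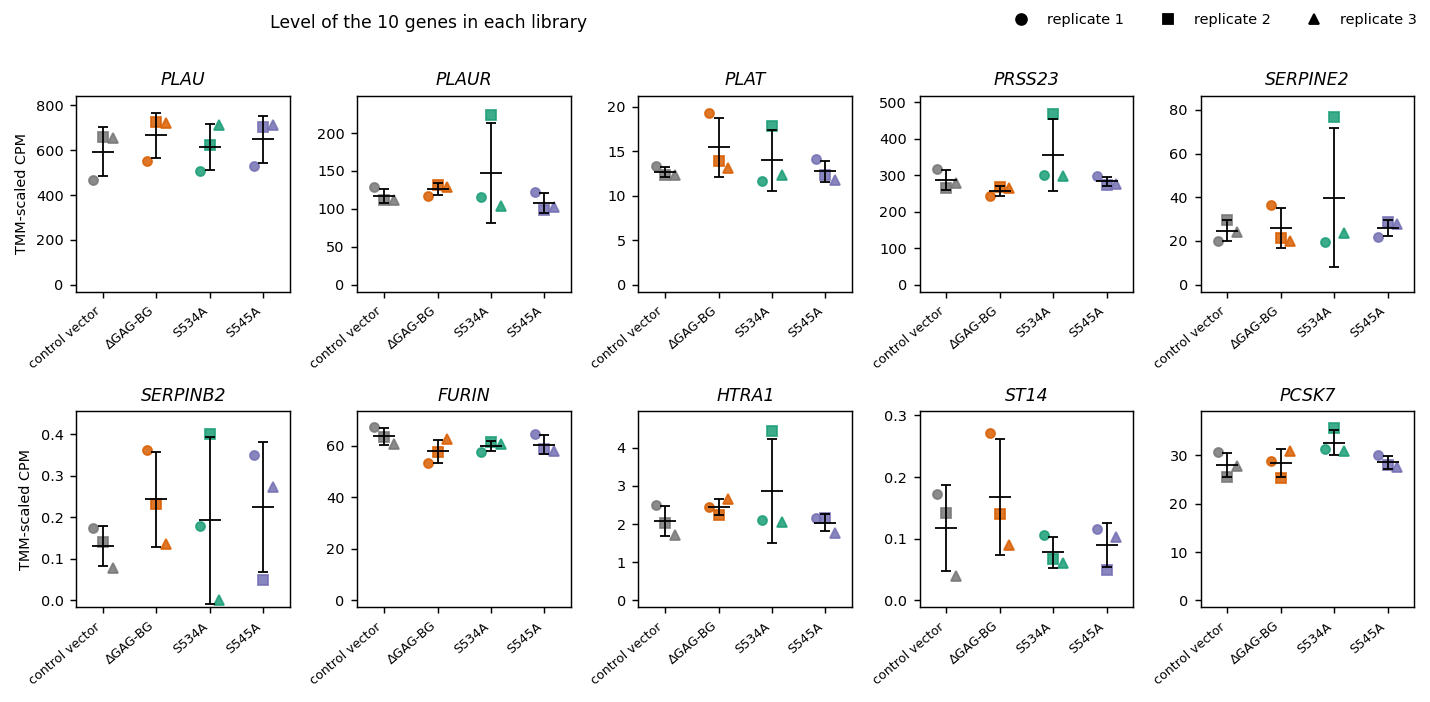
Level of each of the 10 genes in every library, as TMM-scaled CPM on a linear axis, by group. Circles, squares and triangles are libraries 1, 2 and 3, bars are the mean ± SD of 3; library 2 of S534A stands above the other 11 for PLAUR, PRSS23, SERPINE2, HTRA1 and PCSK7, and library 1 is the lowest of its group for PLAU in all 4 groups.

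PLAU lies on chromosome 10 of GRCh38 (73909177 to 73917497, plus strand). It was at 469, 658 and 655 CPM in the control vector libraries, and at 550.0, 727 and 720.4 CPM in those labelled ∆GAG-BG. The S534A libraries had 506, 621 and 711 CPM, and the S545A libraries 529, 705 and 712 CPM. In each group library 1 was the lowest, and the 4 libraries numbered 1 (469 to 550.0 CPM) did not overlap with the other 8 (621 to 727 CPM), while the groups overlapped in all 6 comparisons. The labels tie the replicate numbers to no batch or day. By edgeR's quasi-likelihood test the log2 fold change of PLAU lay between -0.12 (S534A against ∆GAG-BG, SE 0.177, adjusted p = 0.907) and 0.17 (∆GAG-BG against control vector, SE 0.177, adjusted p = 1.00). The 95% interval of the latter ran from -0.22 to 0.55. C10orf55, on the opposite strand, shares 916 bases of exon (31.1%) with PLAU and had 46 to 116 counts, against 11713 to 20851 for PLAU. Whether the counting used strand is not stated, so reads in that overlap could belong to either gene.

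PLAT, the other activator (chromosome 8, 42175233 to 42207724, minus strand), was at 13.3, 12.3 and 12.3 CPM in control vector. It was at 19.2, 13.9 and 13.1 CPM in the libraries labelled ∆GAG-BG, at 11.7, 17.9 and 12.3 CPM in S534A and at 14.1, 12.3 and 11.8 CPM in S545A. The 2 highest values were ∆GAG-BG library 1 and S534A library 2, and the rest lay between 11.7 and 14.1 CPM. None of its comparisons passed an unadjusted p of 0.05 with all libraries. The difference of S545A from ∆GAG-BG was -0.27 on the log2 scale (SE 0.181, 95% interval -0.67 to 0.12, edgeR). It was -0.60, at an unadjusted p under 0.05, without libraries 2 and 3 of ∆GAG-BG and control vector, where the 1 remaining ∆GAG-BG library is that with the highest PLAT. Per length, PLAU exceeded PLAT by 64.2 to 136 times.

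The receptor PLAUR (chromosome 19, 43646095 to 43670547, minus strand) was at 128, 112 and 112 CPM in control vector, and at 116, 132 and 129 CPM in the libraries labelled ∆GAG-BG. It was at 115, 224 and 104 CPM in S534A and at 123, 98.3 and 102 CPM in S545A. S534A library 2 was 1.70 times the next highest library, and the other 11 spanned 98.3 to 132 CPM. The fitted difference of S545A from S534A was -0.46 (SE 0.232, 95% interval -0.96 to 0.05, adjusted p = 0.702, edgeR), and -0.03 without S534A library 2. The 3 libraries labelled ∆GAG-BG were not separated from the S534A or the S545A group. The ratio of PLAU to PLAUR in TPM was 4.19 in S534A library 2, 5.52 to 7.13 in the 4 libraries numbered 1, and 8.32 to 10.8 in the other 7.

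**Figure D2:**
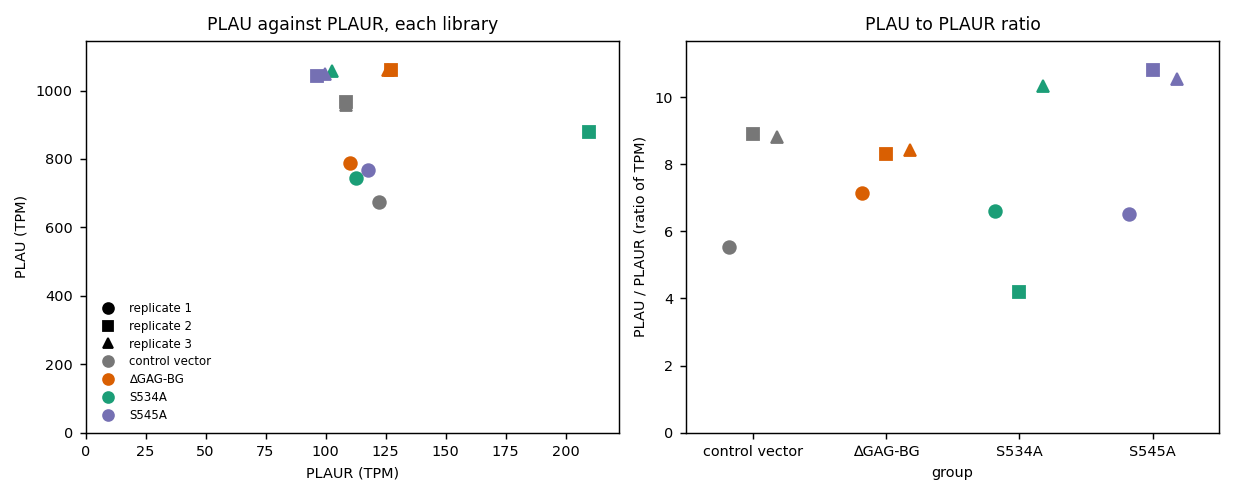
PLAU against PLAUR in TPM (left) and their ratio by group (right), on linear axes from 0, with 1 point per library, colour for the group and shape for the library number. The 7 libraries of ratio 8.32 to 10.8 lie above the 4 circles (5.52 to 7.13) and S534A library 2 (4.19) in every group they belong to.

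Among the inhibitors, SERPINE2 (chromosome 2, 223975112 to 224039319, minus strand) varied most of the members tested. It was at 20.1, 29.7 and 24.2 CPM in control vector, and at 36.5, 21.2 and 19.8 CPM in the libraries labelled ∆GAG-BG. The S534A libraries had 19.3, 76.7 and 23.5 CPM, and the S545A libraries 21.9, 28.9 and 27.5 CPM. S534A library 2 held 3.58 times the mean of the other S534A libraries, and ∆GAG-BG library 1 was the next highest. The log2 fold change of S534A against control vector was 0.70 (SE 0.442, adjusted p = 0.871, edgeR) with a 95% interval of -0.27 to 1.67. Without library 2 it was -0.21. The difference of S545A from S534A was -0.62 (SE 0.441, 95% interval -1.58 to 0.35), and 0.29 without that library.

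SERPINB2 (chromosome 18, 63871692 to 63903890, plus strand) had 0 to 12 counts per library and did not pass the filter, so it was not in the edgeR model. Its exact permutation p was 0.3 to 0.9 over the 6 comparisons (0.9 to 0.964 adjusted over the tests of all 10 genes). The count of 0 in S534A library 3, the shallowest library, allows up to 0.183 CPM.

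PRSS23, a secreted trypsin-like protease (chromosome 11, 86791059 to 86952910, plus strand), was the 1 member below an unadjusted p of 0.05 in any comparison. It was at 242, 266 and 265 CPM in the libraries labelled ∆GAG-BG, and at 299.8, 468 and 296 CPM in S534A. It was at 298, 274 and 276 CPM in S545A and at 316, 266 and 277 CPM in control vector. All S534A and all S545A libraries lay above the 3 labelled ∆GAG-BG, and the control vector libraries overlapped with each group. S534A against ∆GAG-BG gave a log2 fold change of 0.46 (SE 0.154, 95% interval 0.13 to 0.80), a 1.38-fold higher level, which did not pass after adjustment (adjusted p = 0.89, edgeR, Benjamini-Hochberg over 16069 genes). This was 1 of 8 members tested, against 2.99% of all genes at that threshold. The estimate was 0.21 without S534A library 2, still at an unadjusted p under 0.05. It was 0.55 without libraries 2 and 3 of ∆GAG-BG and control vector, and no longer past that threshold. S545A against ∆GAG-BG gave 0.13 (SE 0.154), with a 95% interval of -0.20 to 0.47. S534A against control vector gave 0.31 (interval -0.02 to 0.64), and S545A against S534A -0.33 (interval -0.66 to 0.01). Without S534A library 2 these were 0.06 and -0.07. FZD4, on the opposite strand, shares 1399 bases with PRSS23 and had 143 to 276 counts, against 4885 to 14030.

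HTRA1 (chromosome 10, 122461525 to 122514908, plus strand, in the count table) was at 2.49, 2.03 and 1.72 CPM in control vector, and at 2.45, 2.23 and 2.66 CPM in the libraries labelled ∆GAG-BG. It was at 2.10, 4.44 and 2.06 CPM in S534A and at 2.17, 2.16 and 1.78 CPM in S545A. The S545A libraries lay below all those labelled ∆GAG-BG, by less than 0.1 CPM at the nearest pair, and S534A library 2 was again the highest of all. These levels rest on 34 to 133 counts. The log2 fold change of S545A against ∆GAG-BG was -0.27 (SE 0.289, 95% interval -0.90 to 0.36, edgeR), and of S545A against S534A -0.52 (SE 0.284, interval -1.14 to 0.10), or -0.04 without S534A library 2.

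ST14 (chromosome 11, 130159562 to 130210376, plus strand) had 1 to 6 counts per library and did not pass the filter. Of the Kunitz inhibitors that hold matriptase in check, SPINT1 had 1 to 12 counts and SPINT2 was at 4.07 to 7.11 CPM, with log2 fold changes of -0.18 to 0.37 and no p under 0.05 in edgeR's test. For ST14 the exact permutation p was 0.2 to 0.9 over the 6 comparisons (0.857 to 0.964 adjusted over the tests of all 10 genes), and counts this low leave small differences undetectable.

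The proprotein convertases were the steadiest members. FURIN (chromosome 15, 90868592 to 90883458, plus strand) was at 67.3, 63.4 and 60.8 CPM in control vector and at 53.6, 57.7 and 62.6 CPM in the libraries labelled ∆GAG-BG. It was at 57.6, 61.4 and 60.7 CPM in S534A and at 64.8, 58.7 and 57.9 CPM in S545A. The groups overlapped in every comparison, the log2 fold changes ran from -0.14 to 0.06 (SE 0.084), and the value farthest from 0, that of ∆GAG-BG against control vector, had a 95% interval of -0.32 to 0.04 (adjusted p = 1.00, edgeR). S534A library 2 was within the range of the other libraries.

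PCSK7 (chromosome 11, 117204337 to 117232525, minus strand) was at 30.65, 25.6 and 27.7 CPM in control vector and at 28.9, 25.3 and 31.0 CPM in the libraries labelled ∆GAG-BG. It was at 31.4, 35.7 and 30.9 CPM in S534A and at 30.2, 28.1 and 27.6 CPM in S545A. The S534A libraries lay above all control vector and all S545A libraries, the lowest of them by under 1 CPM. The log2 fold changes were 0.22 (SE 0.105, 95% interval -0.01 to 0.45, edgeR) for S534A against control vector and -0.19 (SE 0.105, interval -0.42 to 0.04) for S545A against S534A, and were 0.15 and -0.12 without S534A library 2. TAGLN and AP000892.6 overlap PCSK7 on the opposite strand by 446 and 3940 bases, with 42 to 209 and 0 to 4 counts against 509 to 1070.

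**Figure D3:**
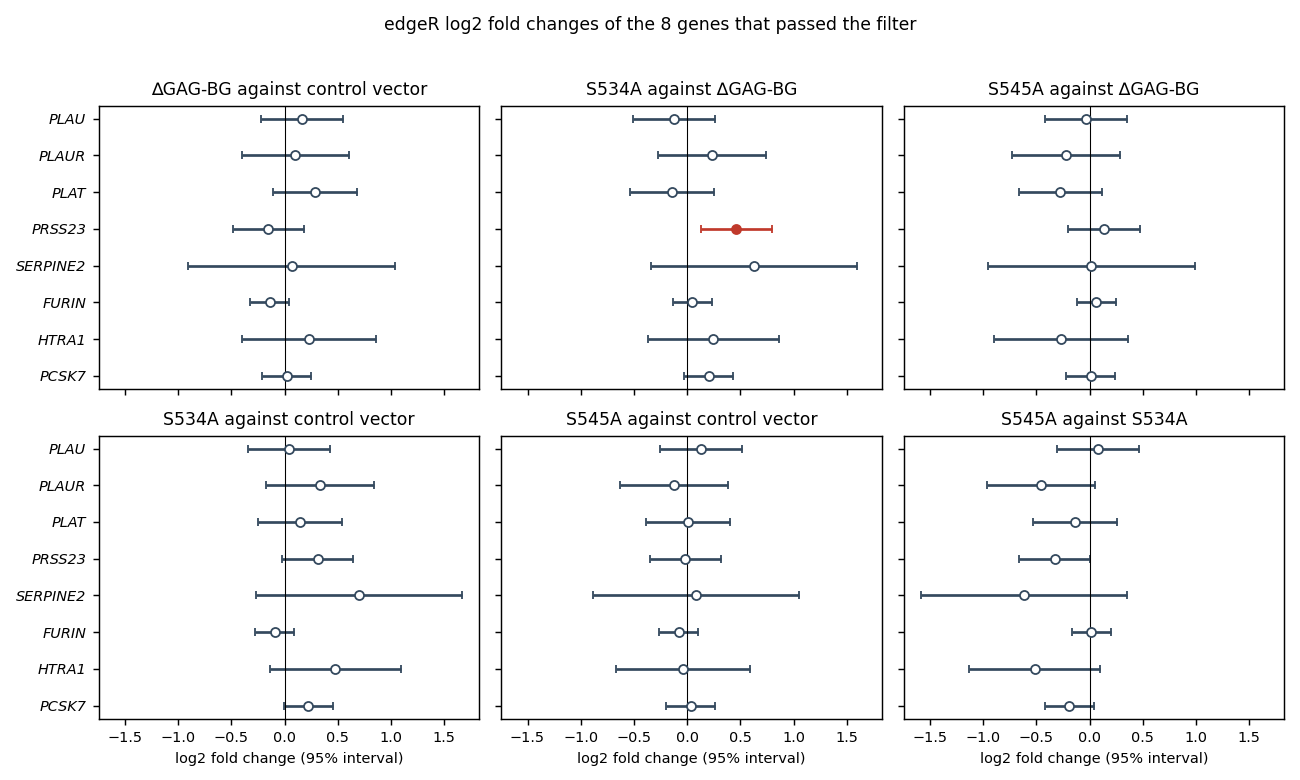
Log2 fold change (point) and 95% interval (bar) of the 8 members that passed the filter, from edgeR, in the 6 comparisons. The filled point, PRSS23 in S534A against ∆GAG-BG (0.46, interval 0.13 to 0.80), is the 1 value at an unadjusted p under 0.05, the bars of SERPINE2 are the widest and those of FURIN the narrowest.

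By comparison, the 8 members tested behaved as follows. In ∆GAG-BG against control vector, no member was at an unadjusted p under 0.05 (0.871% of all genes were) and none of the groups was separated (4.87% of all genes were). Since TGFBR3 went against the labels in libraries 2 and 3 of both groups, this comparison cannot show what the unmodified core protein adds. In S534A against ∆GAG-BG, PRSS23 was separated upward, 1 of 8 members against 5.66% of all genes. In S545A against ∆GAG-BG no member was at an unadjusted p under 0.05 (1.1% of all genes), and 2 were separated, PRSS23 upward and HTRA1 downward (5.05%). S534A against control vector gave none (3.45%) and 1 separated, PCSK7 upward (7.65%). S545A against control vector gave none (1.05%) and none separated (8.82%). S545A against S534A gave none (4.78%) and 1 separated, PCSK7 downward (10.1%). Each of these 5 separations had an exact two-sided permutation p of 0.1, the smallest that 3 against 3 allows, and 0.857 after adjustment over the 60 such tests of the 10 genes.

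No member passed an adjusted p of 0.05 in any comparison, and neither did any other gene by edgeR, while 140 to 768 genes were at an unadjusted p under 0.05. DESeq2 called 0 to 5 and limma-voom 0 to 1 genes after adjustment, none of them a member. The median log2 fold change of the 8 members was 0.22 in S534A against ∆GAG-BG and 0.27 in S534A against control vector, where 6 and 7 of 8 were above 0, and -0.26 in S545A against S534A, where 6 of 8 were below 0. In the other 3 comparisons it was 0.08, -0.01 and 0.00, and over all genes tested it was within 0.01 of 0 in each. These comparisons share groups, and the 3 with a larger median are those with the S534A group, which holds S534A library 2. The part of that library in these medians was not tested.

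**Figure D4:**
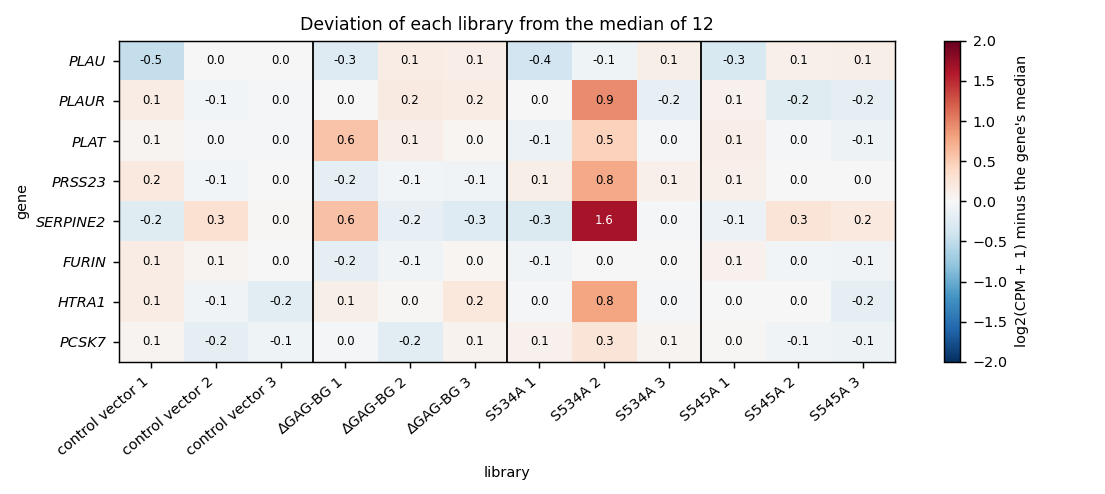
Difference of each library from the gene's median over 12 libraries, on the scale log2(CPM + 1), for the 8 members tested; red is above and blue below the median. S534A library 2 is the reddest column for SERPINE2, PLAUR, PRSS23 and HTRA1, and PLAU is blue in library 1 of each group.

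The members did not all follow that library. Its value over the mean of the other S534A libraries was 3.58 for SERPINE2, 2.13 for HTRA1, 2.04 for PLAUR, 1.57 for PRSS23, 1.49 for PLAT and 1.15 for PCSK7, but 1.02 for PLAU and 1.04 for FURIN. It was the highest of 12 for 5 of the 8 members. Pearson correlations of log2(CPM + 1) between members, over 12 libraries that share these differences, had a median of 0.35 over 28 pairs, and of -0.06 without S534A library 2. The closest pair, PLAUR and HTRA1, was at 0.92 and at 0.62 without S534A library 2. PLAUR with PRSS23 went from 0.82 to 0.04, and PRSS23 with SERPINE2 from 0.63 to -0.68.

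Genes with the most similar pattern differed from member to member. For PLAU they were ITGB2 and NNMT (both r = 0.97 over 12 libraries). For SERPINE2 they were GRN and NCSTN (both 0.98), for PRSS23 TRIAP1 (0.98) and AP2M1 (0.96), and for PLAUR FAM219A (0.97) and LRIG1 (0.96). PLAT was nearest to TMEM158 (0.93) and ALOX5AP (0.92), HTRA1 to NPHP4 and PAPPA (both 0.96), PCSK7 to RP11-110I1.12 (0.92) and C16orf70 (0.91), and FURIN to CBX3P9 and TPST1 (both 0.89). Without S534A library 2 these 16 correlations were 0.81 to 0.98, the lowest being those of AP2M1 with PRSS23 and of NPHP4 and PAPPA with HTRA1, and FAM219A with PLAUR was at 0.89. They are the highest of 16069 values each, over libraries that share the differences described above, and are given as a description.

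PRSS23 and SERPINE2, the member with the lowest p and the member with the widest spread, had promoter windows in RefSeq (GRCh38.p14) that lie outside annotated exons. The windows of 250 bases before 35116 starts were searched on both strands for an AP-1 type motif (TGANTCA, found in 6.57% of them), a GC box (GGGCGG, in 42.6%), a SMAD type motif (CAGACA, in 13.6%), a TATA box (TATAAA, in 10.7%) and a CCAAT box (in 32.0%). Bases before the PRSS23 start at the beginning of its span (chr11:86790821-86791058, plus strand) held none of them, while the window of another PRSS23 start, which overlaps annotated exons and is not printed, held GGGCGG 5 times. Those before a SERPINE2 start within its span (chr2:224031479-224031728, minus strand) held 7 CCAAT matches and a GGGCGG match. Of all windows searched, 7 (0.0199%) held CCAAT at least that often. Much of the SERPINE2 window is a stretch repeated with few changes, as the printed bases show. Its CCAAT matches are thus largely copies of each other. The window of another SERPINE2 start held GGGCGG 2 times. The PRSS23 and SERPINE2 windows given by position are printed on the strand of the gene, with matches on either strand in capitals.
PRSS23: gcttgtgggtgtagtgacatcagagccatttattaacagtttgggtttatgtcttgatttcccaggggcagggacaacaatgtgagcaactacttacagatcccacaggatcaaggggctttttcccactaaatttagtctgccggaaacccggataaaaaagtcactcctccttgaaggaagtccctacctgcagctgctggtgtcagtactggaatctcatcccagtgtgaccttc
SERPINE2: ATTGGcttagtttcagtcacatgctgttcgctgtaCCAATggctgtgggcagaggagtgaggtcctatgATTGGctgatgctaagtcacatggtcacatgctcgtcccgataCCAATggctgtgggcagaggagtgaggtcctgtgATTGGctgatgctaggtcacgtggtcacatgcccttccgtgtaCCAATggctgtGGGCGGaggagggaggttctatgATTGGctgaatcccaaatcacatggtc
The AP-1 type motif occurred in a window of PLAUR and of SERPINB2, and the SMAD type motif in a window of SERPINB2 and of FURIN. Such matches describe the letters only.

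Other genes of the pathway, a list of 47 around the plasminogen system, matriptase, the HtrA family, the proprotein convertases and thrombin with its receptors, were at levels from 0 counts to 3301 CPM, and 27 passed the filter. In S534A against ∆GAG-BG 1 of the 27 was at an unadjusted p under 0.05 (2.99% of all genes), MRC2, the endocytic collagen receptor that associates with uPAR. MRC2 was at 66.0, 67.4 and 70.8 CPM in S534A, below the 101, 77.9 and 77.4 CPM of the libraries labelled ∆GAG-BG. Its log2 fold change was -0.33 (SE 0.104, adjusted p = 0.89, edgeR). None of the 27 was at that threshold in the other 5 comparisons, and none passed after adjustment. The medians of the list lay between -0.05 and 0.12. PLG, which encodes plasminogen and is named here after its values were seen, had 0 counts in all 12 libraries, so its transcript was not detected at this depth. Plasminogen protein, the substrate of PLAU, was not measured.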

How the data were processed

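RNA-seq of 12 HEYA8 libraries was analysed from 1 table of raw counts per gene, which the authors deposited without normalization. Per the labels, libraries were made from total RNA with a directional kit and read as paired ends. The submitters' processing notes name FastQC, Trim Galore 0.4.5, STAR 2.4, SAMtools 1.2 and featureCounts, and the builds mm10 and GRCm38. The table's coordinates are human: 33648 of the 36113 symbols found in GENCODE release 29 have the same span on GRCh38. Exon lengths for TPM are those in the table. The strand setting is not given in the sources used here, and 37 mitochondrial genes had 0 counts.

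Genes were kept by filterByExpr (minimum count 10), scaled by TMM (factors 0.977 to 1.02), and tested by edgeR 4.0.16 under R 4.3.3 (quasi-likelihood, robust) in 1 model of the 4 groups, with Benjamini-Hochberg adjustment over 16069 genes. The biological coefficient of variation was 0.163. Groups were also compared by two-sided exact permutation tests (scipy 1.17.1). The fit was also run on simulated data with known changes. Those data held no library like S534A library 2 and no likeness of libraries 2 and 3. They cannot show how the fit behaves under these. Alternatives were DESeq2 1.42.0, limma-voom (limma 3.58.1), RLE factors, library size only, 2 other filters, a block for the replicate number, each replicate left out in turn, a model of just the compared groups, sums of libraries 2 and 3 in control vector, ∆GAG-BG and S545A, and a fit without libraries 2 and 3 of control vector and ∆GAG-BG.

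The 10 members were given by symbol. 1 further gene of the pathway is not reported here. The members, the pathway list and the alternatives were chosen with earlier results of these data known. Named besides them were TGFBR3, HSPA5, SPINT1, SPINT2, pathway genes at an unadjusted p under 0.05, markers, overlapping genes, and the 2 genes nearest in pattern to each member. The series calls the replicates biological, but no label says that they are separate cultures, so p-values may measure technical spread. For HSPA5, libraries 2 and 3 lay close together and apart from library 1 in 3 groups. They were at 3878 and 3906 CPM against 1290 in control vector, and at 1256 and 1228 against 11864 in ∆GAG-BG. In S545A they were at 2596 and 2628 against 1273 CPM, while S534A had 1250, 287 and 1985 CPM. PLAU and TGFBR3 showed the same in these 3 groups. Libraries 2 and 3 may therefore not be independent. Deviations of equally numbered S545A and control vector libraries from their group means correlated (0.732, 0.480 and 0.481 over genes). Libraries 2 and 3 lay close together in both groups for the genes above. These values therefore cannot show that libraries were matched by number. All comparisons were fitted by group only, and the block for the replicate number was an alternative fit.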

Additional observations from a re-analysis of the deposited data

How the results depend on the processing

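Of 768 alternative values of the 8 members, none that passed an unadjusted p of 0.05 changed sign; 742 stayed on the same side of that threshold, 1 no longer passed it and 25 newly passed it. Among these were 55 with the opposite sign, none of them past the threshold in either fit. The number of members at an unadjusted p under 0.05 moved as follows. In S534A against ∆GAG-BG (1) it was 0 without libraries 2 and 3 of ∆GAG-BG and control vector, and 1 to 2 when any replicate was omitted. For S545A against ∆GAG-BG (0) it was 1, PLAT, without those libraries. In S534A against control vector (0) it was 1 with library size only, 1 with no filter and 0 to 4 with a replicate left out. In S545A against S534A (0) it was 1 with no filter, 1 by DESeq2 and 0 to 4 with a replicate left out. In the other 3 comparisons leaving out a replicate gave 0 to 0. The added members were PCSK7 (without ∆GAG-BG library 3), SERPINE2 (S534A 1) and PLAT (S534A 2) in S534A against ∆GAG-BG. In S534A against control vector they were PRSS23 and PCSK7 without control vector library 1, 3 members without S534A library 1 and 4 without library 3. In S545A against S534A they were 4 without S534A library 1 and 3 without library 3. These fits keep S534A library 2 beside 1 other library, and the members were PRSS23, HTRA1, PLAUR and SERPINE2. The fit with the replicate number as a block gave 1 in ∆GAG-BG against control vector, PLAU (log2 fold change 0.17, edgeR). In that comparison the deviations of same-numbered libraries correlated at -0.160, -0.130 and -0.101 over genes. PLAU itself was the lowest in library 1 of all 4 groups, and the labels do not say what the number stands for. In S545A against control vector, the block changed no call. The cause of these moves was not tested. Genes of all 16069 at an adjusted p under 0.05, 0 in each comparison, were 1 with no filter, 5 by DESeq2, 1 by limma-voom and 9 without those libraries in S534A against ∆GAG-BG. They were 1, 2, 1 and 1 in S534A against control vector, 1 each by no filter, DESeq2 and limma-voom in S545A against S534A, and 1 each without those libraries in ∆GAG-BG and in S545A against control vector. With a replicate left out they were 0 to 0. The fit without those libraries leaves ∆GAG-BG and control vector 1 library each, assumed to vary like the others. With 3 libraries a group in ∆GAG-BG against control vector, the 95% interval of the log2 fold change in that comparison was -0.22 to 0.55 for PLAU but -0.90 to 1.04 for SERPINE2, which limits what could be seen.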
